A study of Mus musculus with 15 samples.

Results

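The mRNAs examined here encode 6 amino acid transporter subunits (Slc3a2, Slc7a5, Slc7a1, Slc38a2, Slc1a4 and Slc1a5) and 4 enzymes of serine and glycine synthesis (Phgdh, Psat1, Psph and Shmt2). They were chosen by name, as amino acid supply genes that respond to the transcription factor ATF4, and make up 10 of the 20207 genes in the tables. All 10 were among the 10276 genes tested. The mRNA-seq data came from NIH3T3 cells, a mouse fibroblast line, into which DD-sfGFP had been stably introduced with a PiggyBac transposon, followed by sorting for strong GFP fluorescence. DD-sfGFP is superfolder GFP joined to a destabilizing domain derived from FKBP, which stays folded while its ligand Shield-1 (S1) is bound. Every group carried this fusion protein. The 5 control samples were labelled as unstressed, at time 0, and were kept in S1. In the other groups S1 was stripped from the domain by adding purified FKBP(F36V) protein, so that the unfolded domain appeared, and cells were collected at 45 min (3 samples), 135 min (3 samples) and 405 min (4 samples). The fusion protein is overexpressed in selected cells of a single line, and no cells without it are among the samples. The question put to the 10 mRNAs was whether, and when, they changed once the domain unfolded. Since all controls were at time 0 without the added protein, elapsed time and the FKBP(F36V) protein cannot be told apart from unfolding here.

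Cells take up amino acids through carriers with distinct cargo and make serine and glycine from a glycolytic intermediate. When amino acids run short or the eIF2 kinases are active, phosphorylated eIF2 favours translation of ATF4, which then activates genes for amino acid uptake and synthesis, among them carriers and serine pathway enzymes of the kind examined here. ATF4 acts with C/EBP family partners at composite sites often called CARE elements. ATF4 is controlled in large part through translation, which mRNA-seq does not measure.

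In the fit described below, neither the carriers nor the enzymes rose past the threshold at any time. Of the 10 mRNAs, 1 passed in any comparison of that fit. This was Slc7a1, the cationic amino acid transporter that brings in arginine and lysine, which fell at 405 min to 0.687 of its control level. At that time the fit called 13.4% of all tested genes lower and 9.99% higher. The Slc7a1 call was lost in some alternative settings, which are given below. Slc3a2 lay higher on average at all 3 times, by 1.33, 1.26 and 1.27 times, without passing. Shmt2 had the largest fitted difference, 2.17-fold at 405 min. All its values in library set 2 lay above those in library set 1, as set out below. In RNA from whole cultures, fewer cells with an mRNA and less of it per cell cannot be told apart.

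Levels are given as CPM, the counts scaled to library size and adjusted by TMM factors. Differences are log2 fold changes from edgeR's quasi-likelihood fit to all 15 samples. Their standard error (SE) was derived as the absolute log2 fold change divided by the square root of the F statistic of its test. The threshold was a Benjamini-Hochberg adjusted p under 0.05 over the 10276 genes. The labels do not say that replicates were separate cultures, so the p-values measure the spread between these samples, which may be technical.

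Promoter windows of RefSeq genes (GRCm38.p6) were searched for the letters of 2 response elements that ATF and C/EBP proteins are known to bind. A window covers 250 bases before and 50 after the start of transcription, and 8 of the 10 genes had one, without Slc7a5 and Slc1a5. The C/EBP-ATF core TGATGNAA, read on both strands, occurred in 3.97% of 32851 windows of all genes, and the cyclic AMP response element TGACGTCA, which is the same on both strands, in 1.79%. Of the 8 genes, Slc1a4 held 1 match of the first, on the opposite strand. Its 8 bases begin 4 bases before the start of transcription and run across it. The windows of the other 7 genes held neither. Sequence beyond the windows, farther upstream or into the gene, was not searched. The window of Slc1a4, because it holds the match, and that of Slc7a1, because it was the mRNA that passed, are printed 5′ to 3′ on the strand of the gene, from 250 bases before to 30 after the start, with the match in capitals. They lie at chr11:20332684-20332963 and chr5:148399875-148400154 of GRCm38.p6, both on the minus strand. For Slc7a1, which has 2 windows, the one farther upstream in the gene is shown.
Slc1a4: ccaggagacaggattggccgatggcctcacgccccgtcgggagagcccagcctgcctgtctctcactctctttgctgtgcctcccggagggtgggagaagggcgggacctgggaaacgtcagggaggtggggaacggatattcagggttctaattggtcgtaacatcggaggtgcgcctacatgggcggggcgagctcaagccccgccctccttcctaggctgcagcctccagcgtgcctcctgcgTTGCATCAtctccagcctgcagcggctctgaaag
Slc7a1: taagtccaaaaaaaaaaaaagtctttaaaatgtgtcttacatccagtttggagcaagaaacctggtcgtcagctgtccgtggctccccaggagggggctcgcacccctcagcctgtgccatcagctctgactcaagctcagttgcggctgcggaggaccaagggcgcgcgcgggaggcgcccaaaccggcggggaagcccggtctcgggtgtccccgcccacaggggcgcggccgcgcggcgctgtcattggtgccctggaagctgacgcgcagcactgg
A match of letters is a description of sequence, and Slc1a4 itself did not pass the test at any time.

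Total counts ran from 6652539 (control replicate 3) to 30258404. The samples were split into 2 library sets at the widest gap in the slope of log2 CPM on transcript GC content. Library set 2 held control replicate 2, 45-min replicate 3 and 405-min replicates 1, 2 and 4, with slopes from -0.354 to 0.063 per 10 percentage points of GC. The other 10 samples, all 3 of the 135-min samples among them, had slopes from -1.394 to -0.643 and form library set 1. The gap used, from -0.643 to -0.354, is barely wider than the next, from -1.394 (control replicate 3) to -1.109 (control replicate 4). The split is thus a working division, and the within-set values below rest on it. Transcripts of Shmt2 (57.4% GC), Phgdh (57.2%), Slc1a5 (56.5%) and Slc7a5 (56.3%) are richer in GC than the median tested transcript (49.5%), and that of Slc38a2 is poorer (43.7%). The labels name a single library kit for all samples, whereas the study's methods describe both oligo(dT) selection and a kit-based preparation without saying which library was made how, and whether the 2 sets are such preparations was not tested. Within-set values at 405 min therefore stand beside the pooled ones for the 10 mRNAs and for the wider genes named as passing. Each within-set comparison has 1 sample on 1 side (405 min in set 1, control in set 2), and that sample is assumed to vary like the others. Summed fibroblast markers (10 genes) measured 15496.6 to 18376.6 CPM in control and 12096.2 to 16644.9 CPM at 405 min, where 5 of them (Col3a1, Dcn, Vim, Pdgfrb and Col1a2) were lower and 0 higher, against 13.4% of all tested genes called lower and 9.99% called higher at that time. The 12 markers of other cell types summed to between 2.3 and 13.1 CPM in every sample, with Adipoq at 0 throughout. The part of the marker shift in the differences at 405 min was not tested.

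**Figure D1:**
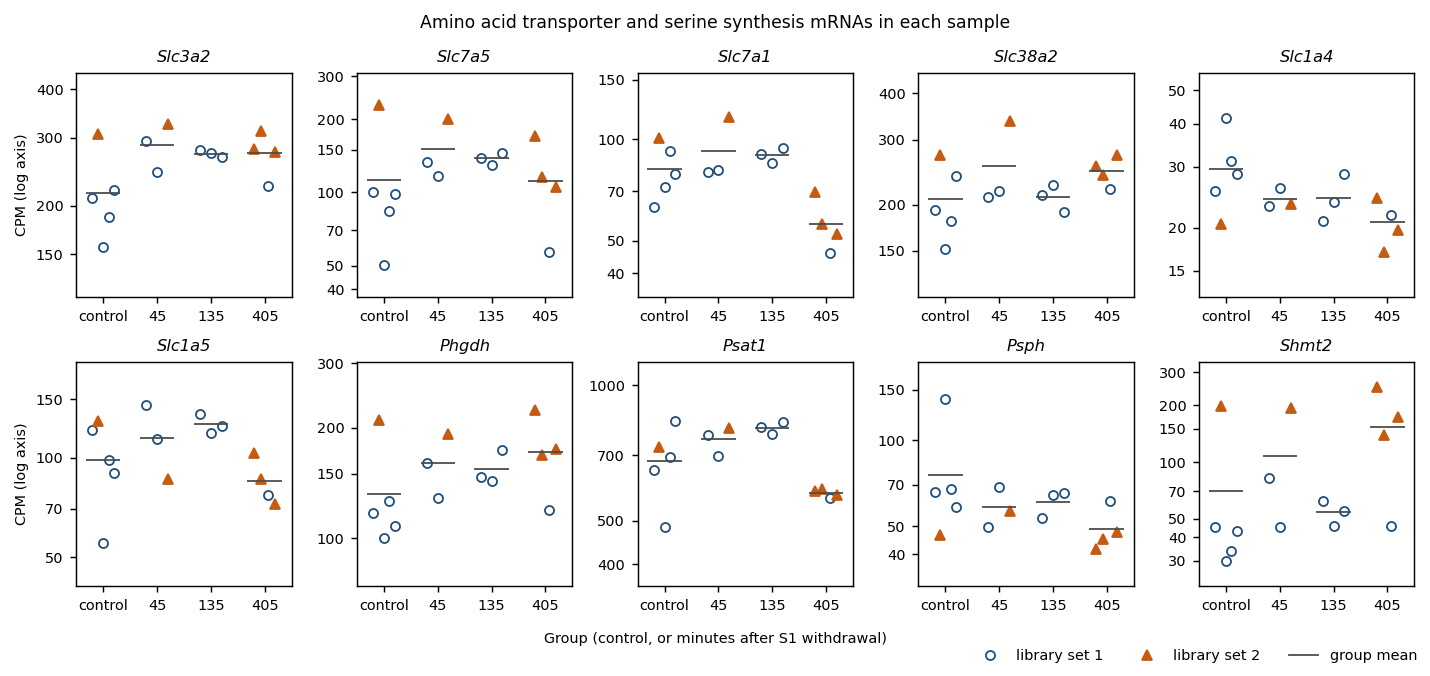
CPM of each of the 10 mRNAs (log axis) by group, with 1 symbol per sample (open circles for library set 1, filled triangles for library set 2) and a bar at the group mean. Slc7a1 at 405 min lies between 46.0 and 69.5 CPM, while for Shmt2 the triangles lie at 140 CPM or above in every group that has them and the circles at 82.7 CPM or below.

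Compared per transcript length, in the RPKM values of the authors, Psat1 was the most abundant of the 10 in control, with a mean level of 150 RPKM ± 61.2 (SD, n = 5). Slc3a2 followed with 39.6 ± 18.2 RPKM and Phgdh with 33.1 ± 17.1 RPKM. Slc38a2 (21.2 ± 9.45), Psph (20.7 ± 2.32), Slc1a5 (17.0 ± 7.5) and Slc7a5 (15.7 ± 11.8) had similar mean RPKM levels. Shmt2 averaged 15.4 ± 18.0 RPKM, with 47.2 RPKM in control replicate 2 and 3.21 to 10.6 RPKM in the other controls. The lowest were Slc7a1 with 5.22 ± 2.0 RPKM and Slc1a4 with 3.23 ± 0.62 RPKM. The range of each of these neighbours over the 5 control samples overlapped with that of the next, which sets different libraries against each other. Within every control library Psat1 lay above Slc3a2. In replicates 1 to 5 they measured 140 and 37.6, 185 and 64.2, 55.8 and 15, 150 and 33.3, and 219 and 47.7 RPKM. At 135 min, where replicates lay closer together, Psat1 (194 ± 4.04 RPKM, n = 3), Slc3a2 (54.5 ± 1.37) and Phgdh (42.4 ± 4.25) each stood apart from the next gene. At 405 min Psat1 was again first (132 ± 12.7 RPKM, n = 4) and Slc7a1 (3.79 ± 0.476) and Slc1a4 (2.57 ± 0.189) again last.

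At 45 min none of the 10 passed, against 0% of all tested genes called higher and 0% called lower (2 genes higher and 4 lower by DESeq2, 0 and 0 by limma-voom). Slc3a2 had an unadjusted p under 0.05, as did 365 of all tested genes. The median log2 fold change was 0.25 over the 10 and 0.02 over all tested genes. At 135 min none passed in either direction, against 0.564% of all genes higher and 0.895% lower, and 0 had an unadjusted p under 0.05 (1226 of all tested genes had). The median was 0.18 for the 10 and -0.06 for all. At 405 min 0 of 10 were higher and 1 of 10 lower, where the fit called 9.99% of all genes higher and 13.4% lower. Slc7a1, Slc1a4 and Psph, all on the lower side, had an unadjusted p under 0.05, as did 4222 of all tested genes. The median was -0.11 for the 10 and 0.00 for all. DESeq2 and limma-voom likewise called 0 of the 10 higher at any of the 3 times. They called 0 lower at 45 and 135 min. At 405 min limma-voom called 1 lower (Slc7a1) and DESeq2 2 (Slc7a1 and Slc1a4).

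Between 135 and 405 min, 0 of the 10 passed in either direction in the edgeR fit, against 2.24% of all genes higher at 405 min and 2.82% lower. With an unadjusted p under 0.05 were 4 of the 10 (Slc7a1, Slc1a5 and Psat1 lower and Shmt2 higher) and 2838 of all tested genes. Scaling by library totals in place of TMM changed the split of all called genes from 230 higher and 290 lower to 325 and 193. Limma-voom called Slc7a1 lower and DESeq2 called Slc7a1 and Psat1 lower. No 135-min sample belongs to library set 2 and 3 of the 4 405-min samples do, so in this comparison library set and time can hardly be told apart. The comparisons with control share the same 5 control samples and are not independent of each other.

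**Figure D2:**
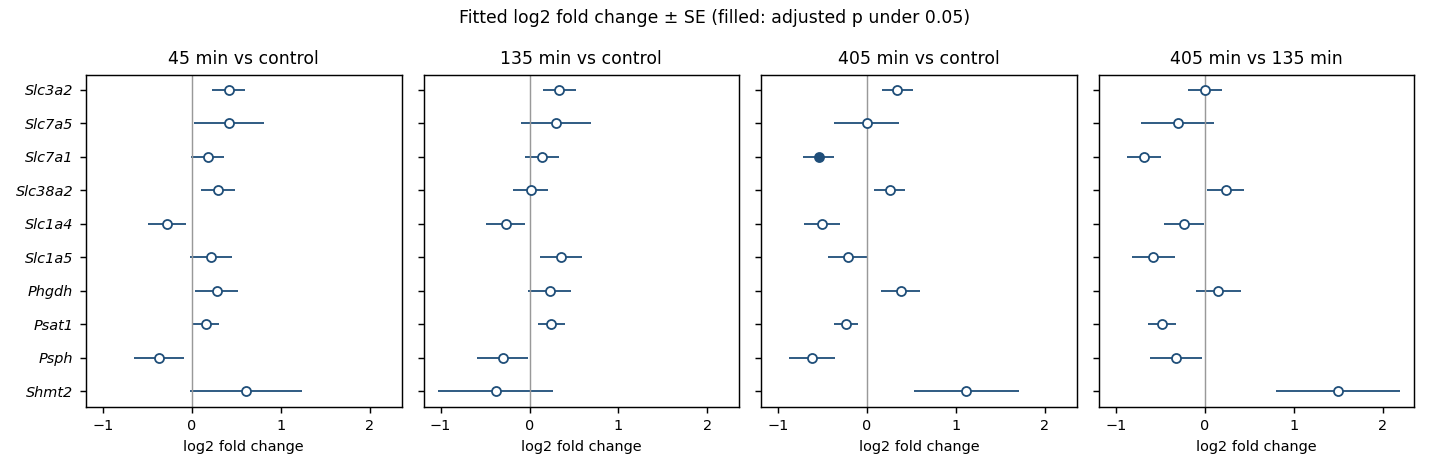
Fitted log2 fold change of each mRNA in 4 comparisons, with bars of 1 SE and a filled symbol where the adjusted p was under 0.05. Slc7a1 at 405 min against control is the single filled point, and the widest bars belong to Shmt2.

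Slc3a2 encodes the heavy chain (CD98) that carries several light-chain transporters, Slc7a5 among them, to the cell surface. It measured 210, 306, 157, 187 and 220 CPM in control replicates 1 to 5, 294, 244 and 326 CPM at 45 min, 278, 274 and 267 CPM at 135 min, and 281, 312, 225 and 276 CPM at 405 min. Apart from control replicate 2, every control lay below all samples of the 3 later groups, and that control overlapped with them. The log2 fold changes were 0.41 (SE 0.185), 0.34 (SE 0.185) and 0.34 (SE 0.171) at 45, 135 and 405 min, with edgeR adjusted p of 0.698, 0.505 and 0.144. Intervals of 2 SE to either side reached 0.78, 0.71 and 0.68. With library set as a term Slc3a2 passed at 135 min (log2 fold change 0.45, SE 0.125, edgeR adjusted p 0.039). Within set 1 the value was 0.50 and did not pass (adjusted p 0.0554). At 405 min the same term took the difference to 0.11 (SE 0.127), and the within-set values were 0.21 (set 1) and -0.07 (set 2). Without control replicate 2, the control of set 2, the 405-min value was 0.50 and passed (SE 0.143, edgeR adjusted p 0.0108). Without both control replicates 2 and 3 it was 0.41 (edgeR adjusted p 0.0247).

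Slc7a5 encodes LAT1, the light chain that pairs with the Slc3a2 product and exchanges large neutral amino acids such as leucine. Its levels were 100, 229, 50.2, 84.0 and 98.4 CPM in control, 134, 117 and 200 CPM at 45 min, 139, 130 and 146 CPM at 135 min, and 170, 116, 57.0 and 105 CPM at 405 min. The 405-min values lay within the range of the controls, and the highest value in each of the 3 groups that hold set 2 samples came from set 2. Log2 fold changes were 0.42 (SE 0.393), 0.30 (SE 0.393) and -0.00 (SE 0.365), none past the threshold (edgeR adjusted p 0.701, 0.827 and 0.993). Within set 1 the 4 controls (50.2 to 100 CPM) lay below both 45-min samples and all 135-min samples and overlapped with the single 405-min sample. In set 2 the 3 405-min samples (105 to 170 CPM) lay below the control (229 CPM). With library set as a term the fitted values were 0.66 (SE 0.213, edgeR adjusted p 0.0659) at 135 min and -0.58 (SE 0.22, adjusted p 0.0943) at 405 min, where the within-set values were -0.56 (set 1) and -0.80 (set 2). The difference between 405 and 135 min then passed, at -1.24 (SE 0.266, edgeR adjusted p 0.018), against -0.30 (adjusted p 0.638) without that term.

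Slc7a1 (chromosome 5, 149138986 to 149211480, mm9) encodes CAT-1, the carrier of arginine, lysine and ornithine, and its promoter windows held neither response element. It measured 62.9, 101, 72.0, 91.9 and 79.0 CPM in control, 79.9, 80.9 and 116 CPM at 45 min, 90.1, 85.1 and 94.3 CPM at 135 min, and 69.5, 56.0, 46.0 and 52.4 CPM at 405 min. The 405-min samples were the lowest of the series except for replicate 1, which lay above the lowest control, and all 4 lay below every 135-min sample. Group means were 81.4 CPM ± 15.3 (SD, n = 5) in control and 56.0 CPM ± 9.92 (SD, n = 4) at 405 min, and the fitted log2 difference of -0.54 (SE 0.174) passed with an edgeR adjusted p of 0.0373. Against 135 min (89.8 CPM ± 4.61, SD, n = 3) the difference was -0.68 (SE 0.195) and did not pass (adjusted p 0.0555).

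The lower level of Slc7a1 at 405 min appeared on both sides of the library split. In set 1 the controls ran from 62.9 to 91.9 CPM and the 405-min sample measured 46.0 CPM. In set 2 the control measured 101 CPM and the 405-min samples 52.4 to 69.5 CPM. The within-set log2 fold changes were -0.74 (set 1) and -0.76 (set 2), larger than the pooled value, and with 1 sample on 1 side of each neither passed (edgeR adjusted p 0.121 and 0.0636). With library set as a term the value was -0.78 (SE 0.139, edgeR adjusted p 0.00147). Slc7a1 was lower in all 30 alternative settings and passed in 16 of them. In the 15 fits without 1 sample the adjusted p ran from 0.0278 to 0.106, and 7 passed. It was lost without control replicate 4 (0.0854) or 5 (0.0533), without 135-min replicate 1 (0.0518), 2 (0.0508) or 3 (0.0511), and without 405-min replicate 2 (0.0845), 3 (0.0664) or 4 (0.106). With only control and 405-min samples in the fit the adjusted p was 0.0912.

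Slc38a2 encodes SNAT2, a sodium-coupled carrier of small neutral amino acids that is a standard marker of amino acid starvation. It measured 193, 273, 152, 181 and 239 CPM in control, 210, 218 and 336 CPM at 45 min, 213, 226 and 191 CPM at 135 min, and 254, 241, 221 and 272 CPM at 405 min. Samples of all groups overlapped, and the 2 highest values were from set 2 (control replicate 2 and 45-min replicate 3). The log2 fold changes were 0.30 (SE 0.194), 0.02 (SE 0.196) and 0.25 (SE 0.179), with edgeR adjusted p of 0.698, 0.985 and 0.291. The upper ends of the 2-SE intervals were 0.68, 0.41 and 0.61. Within set 1 the 405-min value was 0.20 and within set 2 -0.08.

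Slc1a4 encodes ASCT1 and Slc1a5 encodes ASCT2, sodium-dependent exchangers of alanine, serine and cysteine, of which ASCT2 also takes up glutamine. Slc1a4 measured 25.6, 20.5, 41.5, 31.1 and 28.7 CPM in control, 23.1, 26.1 and 23.4 CPM at 45 min, 20.9, 23.7 and 28.7 CPM at 135 min, and 24.4, 17.0, 21.8 and 19.7 CPM at 405 min. Its promoter window is the one that held a C/EBP-ATF core. Control replicate 2 lay within the 405-min range and the other controls above it. The log2 fold changes were -0.28 (SE 0.218), -0.27 (SE 0.218) and -0.50 (SE 0.201), none past the threshold (edgeR adjusted p 0.698, 0.681 and 0.0777). The 405-min value of Slc1a4 was -0.54 within set 1 and 0.00 within set 2, and with library set as a term it was -0.34. It passed as lower with DESeq2 (-0.52, DESeq2 adjusted p 0.0423) and with a GC offset (-0.81, edgeR adjusted p 0.0284). It also passed without control replicate 2 (-0.61, edgeR adjusted p 0.0159) and without both control replicates 2 and 3 (-0.46, edgeR adjusted p 0.0362), and in no other alternative.

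Slc1a5 measured 121, 129, 55.3, 98.4 and 89.6 CPM in control, 144, 114 and 86.4 CPM at 45 min, 135, 119 and 125 CPM at 135 min, and 103, 86.4, 77.0 and 72.5 CPM at 405 min. All 4 samples at 405 min lay below all 3 at 135 min, while both groups overlapped with control. Fitted log2 fold changes were 0.22 (SE 0.234) at 45 min, 0.36 (SE 0.234) at 135 min and -0.22 (SE 0.218) at 405 min (edgeR adjusted p 0.709, 0.597 and 0.448). The 405-min value was -0.26 within set 1 and -0.55 within set 2, and neither passed (adjusted p 0.731 and 0.206). The step from 135 to 405 min was -0.58 (SE 0.245, edgeR adjusted p 0.152). An offset for GC content moved the 405-min value against control to -0.71 (edgeR adjusted p 0.0303) and the step from 135 min to -1.05 (adjusted p 0.0193).

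Phgdh encodes phosphoglycerate dehydrogenase, which commits 3-phosphoglycerate to serine synthesis. It measured 117, 210, 99.9, 126 and 108 CPM in control, 160, 129 and 192 CPM at 45 min, 147, 143 and 174 CPM at 135 min, and 224, 169, 119 and 175 CPM at 405 min. The controls of set 1 lay below every later sample but the 405-min sample of that set, and control replicate 2 was among the highest 2 values of all 15. On the log2 scale its differences from control, 0.28 (SE 0.242), 0.22 (SE 0.243) and 0.38 (SE 0.223), did not pass (edgeR adjusted p 0.698, 0.772 and 0.207). Set 2 exceeded set 1 by 1.86 times in control and by 1.59 times at 405 min. With library set as a term the 405-min value was 0.02, and within the sets it was 0.06 (set 1) and -0.14 (set 2). Without control replicate 2 it was 0.61 and passed (SE 0.180, edgeR adjusted p 0.0131).

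Psat1 encodes phosphoserine aminotransferase, the second enzyme of the pathway. Its levels were 650, 730, 484, 693 and 834 CPM in control, 774, 697 and 805 CPM at 45 min, 806, 779 and 829 CPM at 135 min, and 581, 587, 563 and 572 CPM at 405 min. The 405-min samples lay close together, below all 135-min samples and below 4 of the 5 controls, and control replicate 3, the shallowest library, was lower still. The log2 fold changes against control were 0.16 (SE 0.149), 0.25 (SE 0.149) and -0.24 (SE 0.138), with edgeR adjusted p of 0.701, 0.557 and 0.203. From 135 to 405 min the value was -0.48 (SE 0.156, edgeR adjusted p 0.0787), and without control replicate 3 in the fit this step passed (adjusted p 0.0173), as did the difference from control (-0.34, adjusted p 0.039). Psat1 was close to equal between library sets, by 1.10 times in control and 1.03 times at 405 min, and its within-set values at 405 min were -0.25 (set 1, adjusted p 0.642) and -0.32 (set 2, adjusted p 0.457).

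Psph encodes phosphoserine phosphatase, which releases serine in the last step. It measured 66.2, 46.5, 139, 67.4 and 58.3 CPM in control, 49.7, 68.5 and 56.4 CPM at 45 min, 53.3, 64.4 and 65.2 CPM at 135 min, and 41.8, 45.0, 61.3 and 47.6 CPM at 405 min. The 405-min samples of set 2 were close to the control of that set, and control replicate 3 stood far above the rest. Log2 fold changes were -0.37 (SE 0.285), -0.30 (SE 0.284) and -0.62 (SE 0.262), and the last did not pass (edgeR adjusted p 0.0908, against 0.698 and 0.729 at the earlier times). The 405-min value was -0.43 within set 1 and -0.04 within set 2. Without control replicate 2 it was -0.75 and passed (SE 0.243, edgeR adjusted p 0.0201).

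Shmt2 encodes the mitochondrial serine hydroxymethyltransferase, which turns serine into glycine and supplies 1-carbon units. It measured 45.1, 199, 29.8, 33.6 and 43.2 CPM in control, 82.7, 45.4 and 194 CPM at 45 min, 61.9, 45.7 and 54.8 CPM at 135 min, and 251, 140, 45.8 and 174 CPM at 405 min. The 5 values at or above 140 CPM were those of library set 2, in control and at 45 and 405 min. The sets were drawn by GC dependence in these same libraries, and the Shmt2 transcript is rich in GC (57.4%). Such a split was therefore partly built in. Library set also goes in part with time, since most 405-min samples and no 135-min sample are in set 2. The fitted log2 fold change at 405 min was 1.12 (SE 0.587, edgeR adjusted p 0.159), with 0.61 (SE 0.631, adjusted p 0.707) at 45 min and -0.38 (SE 0.649, adjusted p 0.878) at 135 min. Set 2 exceeded set 1 by 5.25 times in control and by 4.11 times at 405 min. Within set 1 the 405-min value was 0.26 and within set 2 -0.07, and with library set as a term it was 0.18 (SE 0.234). Without control replicate 2, the only control in set 2, the 405-min value rose to 2.01 and passed (SE 0.451, edgeR adjusted p 0.0032), and without both control replicates 2 and 3 it was 1.91 (adjusted p 0.0102).

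**Figure D3:**
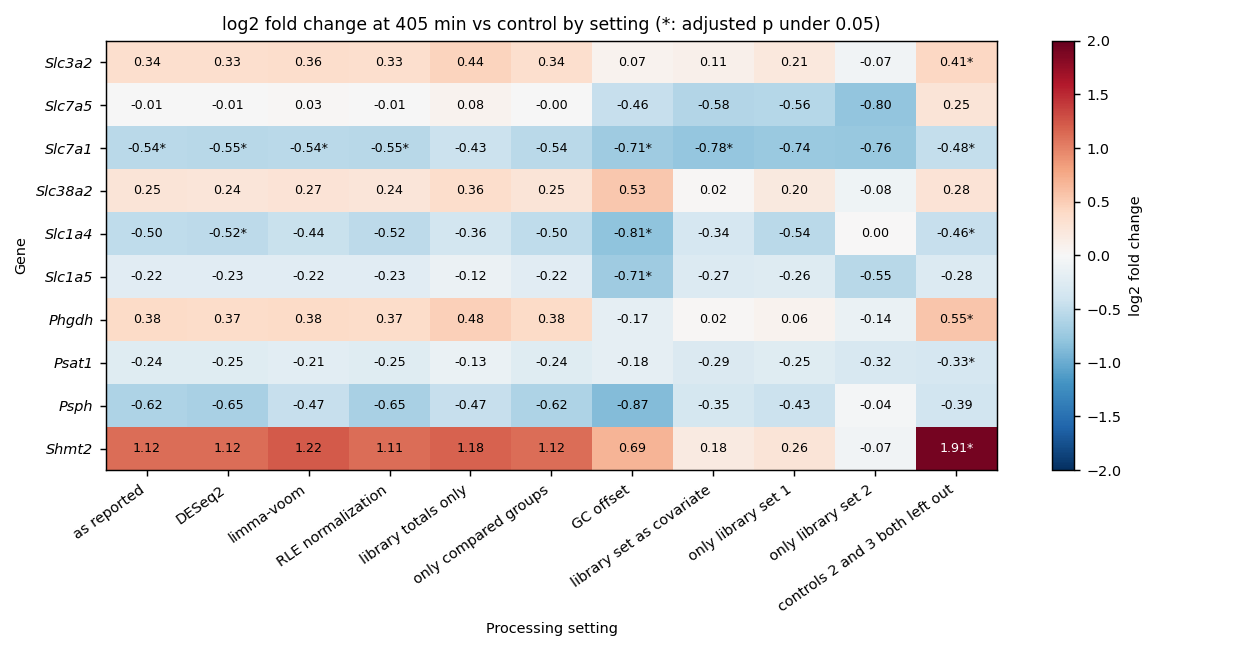
Fitted log2 fold change at 405 min against control for the 10 mRNAs (lines) under 11 settings (columns), with an asterisk where the adjusted p was under 0.05. Slc7a1 is lower in every column, from -0.43 to -0.78, whereas Shmt2 runs from 1.91 without control replicates 2 and 3 to -0.07 within library set 2.

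After the mean of each library set was taken out, the pattern of log2 CPM over the 15 samples was most alike for Slc7a5 and Slc1a5 among the 10 (Pearson r = 0.90), followed by Slc7a5 and Psat1 (0.87). Slc1a4 and Psph also moved together (0.76), and Slc3a2 ran opposite to Slc1a4 (-0.72). These values describe samples that share libraries and depths, with n = 15. Control replicate 3, the shallowest library, held the lowest CPM of all samples for Slc7a5 (50.2), Slc1a5 (55.3), Psat1 (484), Slc3a2 (157) and Shmt2 (29.8). It held the highest for Slc1a4 (41.5) and Psph (139). Correlations without this library were not computed. Over all tested genes, those most like Shmt2, which had the largest positive fitted value at 405 min, included Tuba1a (0.94), Rbck1 (0.94), Pdlim1 (0.93) and Rpl8 (0.93). Those most like Psph, with the largest negative value, were Ero1l (0.95), Tmem50a (0.95), Mbnl2 (0.94), Lyrm2 (0.94) and Gnai3 (0.94).

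Other genes of amino acid supply and of the ATF4 pathway, in 5 lists chosen by function, included some that passed the test. Of 95 listed genes 74 were tested. At 45 min 0 of the 74 passed, at 135 min 1 was higher and 0 lower, and at 405 min 10 were higher and 10 lower. Their median log2 fold change at 405 min was 0.18. The same threshold called 9.99% of all tested genes higher and 13.4% lower at that time.

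Among the other amino acid transporters (17 of 28 tested), 1 rose and 2 fell at 405 min. Slc7a11 encodes xCT, the cystine/glutamate exchanger, which uses the Slc3a2 product as its heavy chain and is a target of both ATF4 and NRF2. It measured 8.16, 10.5, 0.349, 8.22 and 9.40 CPM in control, 5.91, 11.6 and 13.4 CPM at 45 min, 35.3, 37.1 and 25.2 CPM at 135 min, and 72.0, 79.7, 50.0 and 54.3 CPM at 405 min. Every 135-min sample lay above every control, and every 405-min sample above every 135-min sample. The log2 fold changes were 2.11 (SE 0.495, edgeR adjusted p 0.0478) at 135 min and 3.09 (SE 0.483, adjusted p 0.000847) at 405 min. Without control replicate 3, which lay far below the other controls, the values were 1.84 (adjusted p 0.00181) and 2.82 (adjusted p 2.25e-05). The 135-min call of Slc7a11 was kept in 2 of the 15 fits without 1 sample, those without control replicate 2 or 3, and the adjusted p in the other 13 reached 0.206. Within sets 1 and 2 the 405-min value was 2.86 (adjusted p 0.0634) and 2.73 (adjusted p 0.00056).

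Slc1a3 encodes GLAST, a glutamate and aspartate carrier. It measured 73.4, 50.7, 134, 92.1 and 69.3 CPM in control and 22.1, 22.6, 23.2 and 13.9 CPM at 405 min. The 2 groups were far apart, and the fitted log2 difference of -2.04 (SE 0.279), with an edgeR adjusted p of 0.000336, held within set 1 (-1.997, adjusted p 0.0243) and set 2 (-1.37, adjusted p 0.0105). Slc38a4, a relative of Slc38a2, fell by 0.88 on the log2 scale (SE 0.191, edgeR adjusted p 0.00655), from 186 to 348 CPM in control to 100 to 161 CPM. Its value was -1.30 within set 1 and -0.47 within set 2, and neither passed (adjusted p 0.0552 and 0.288). Slc7a6, another partner of Slc3a2, had -0.60 (SE 0.227) and did not pass (adjusted p 0.0655).

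**Figure D4:**
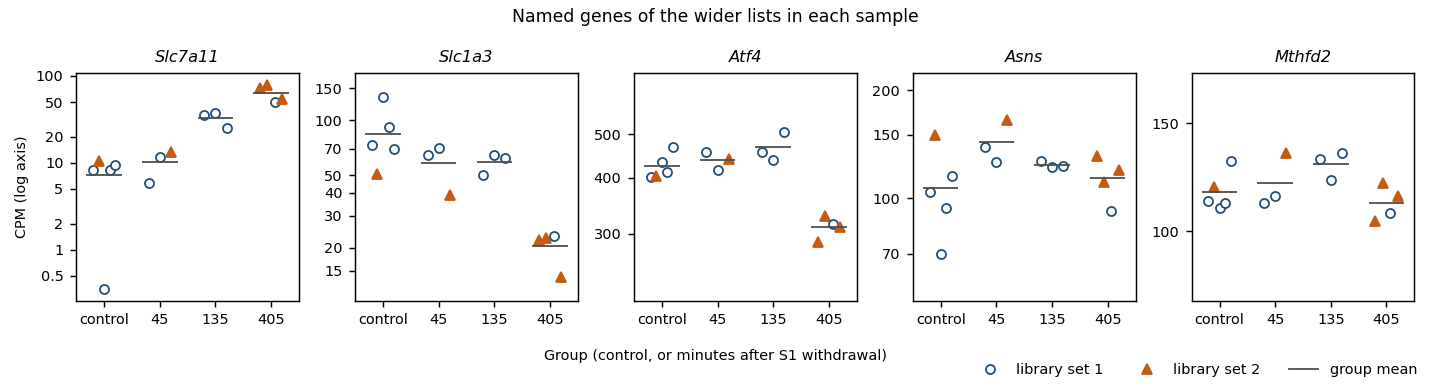
CPM of 5 genes outside the 10 (log axis) by group, with symbols for the 2 library sets and bars at group means as in the plot of the 10 mRNAs. Slc7a11 rises from at most 10.5 CPM in control to at least 50.0 CPM at 405 min, Slc1a3 and Atf4 at 405 min lie below all controls, and Asns and Mthfd2 overlap between control and 405 min.

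Among enzymes of 1-carbon and glycine metabolism (13 of 16 tested), 1 rose and 1 fell at 405 min. Sfxn1, the mitochondrial serine carrier that feeds Shmt2, fell by 0.89 on the log2 scale (SE 0.174, edgeR adjusted p 0.00364), and its 405-min samples (62.2 to 106 CPM) lay below all controls (117 to 168 CPM). Sfxn1 also passed with library set as a term, at -0.62 (edgeR adjusted p 0.00138), and the within-set values were -0.54 (set 1, adjusted p 0.139) and -0.72 (set 2, adjusted p 0.0645). Mthfd2, which acts next to Shmt2 in mitochondria and is a common ATF4 target, measured 112, 118, 109, 111 and 130 CPM in control and 104, 120, 107 and 114 CPM at 405 min. These 2 groups overlapped (log2 fold change -0.06, SE 0.108, edgeR adjusted p 0.674). Mthfd1 (0.32, adjusted p 0.122) and Mtr (0.73, adjusted p 0.172) did not pass.

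Of the other enzymes of amino acid synthesis (17 of 19 tested), 3 rose and 1 fell. Pycrl, a pyrroline carboxylate reductase of proline synthesis, rose by 1.49 (SE 0.257, edgeR adjusted p 0.00164), Gpt, an alanine aminotransferase, by 1.91 (SE 0.583, adjusted p 0.0307), and Asl, argininosuccinate lyase, by 1.12 (SE 0.352, adjusted p 0.035). Gpt lay at or below 6.15 CPM in every sample, and Gpt and Asl passed in 16 and 15 of the 30 alternative settings. The differences were smaller within the sets, at 1.24 and 0.87 for Pycrl, 1.32 and 0.94 for Gpt and 0.94 and 0.43 for Asl (sets 1 and 2), and none passed (adjusted p 0.0507 to 0.474). A term for library set left Pycrl past the threshold (1.14, edgeR adjusted p 0.000839) but not Gpt (1.33, adjusted p 0.132) or Asl (0.61, adjusted p 0.0826). In set 2 Asl measured 21.9 CPM in the control and 27.0 to 31.9 CPM at 405 min. Asns, asparagine synthetase and a standard ATF4 target, measured 104, 150, 69.9, 93.9 and 115 CPM in control and 131, 111, 92.3 and 120 CPM at 405 min. These ranges overlapped, and the log2 difference was 0.09 (SE 0.183, edgeR adjusted p 0.732).

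Within the list of ATF4 and its other targets (14 of 17 tested), 2 rose and 5 fell at 405 min. Atf4 mRNA itself measured 402, 404, 434, 412 and 468 CPM in control, 457, 416 and 440 CPM at 45 min, 457, 438 and 507 CPM at 135 min, and 287, 328, 316 and 311 CPM at 405 min. All 405-min samples lay below all others, and the fitted log2 difference of -0.45 (SE 0.103) passed with an edgeR adjusted p of 0.00907. With library set as a term it was -0.43 (adjusted p 0.0114), and within the sets, with few samples, -0.45 (adjusted p 0.2) and -0.37 (adjusted p 0.361). Cebpb (-1.33, adjusted p 0.00542) and Cebpg (-1.15, adjusted p 0.00999), which encode C/EBP partners of ATF4, also fell, as did Chac1, which encodes a glutathione-degrading enzyme (-1.04, adjusted p 0.0214), and Jdp2 (-0.46, adjusted p 0.0259). Sesn2 (1.70, adjusted p 0.031) and Ppp1r15a (1.27, adjusted p 0.0318, listed as Myd116) rose. Both are known to answer to p53 or to general stress as well as to ATF4. With library set as a term Cebpb (-0.93, edgeR adjusted p 0.00906), Cebpg (-0.70, adjusted p 0.0297) and Chac1 (-1.19, adjusted p 0.0221) passed, while Jdp2 (-0.43, adjusted p 0.0517), Sesn2 (0.76, adjusted p 0.0502) and Ppp1r15a (listed as Myd116, 0.68, adjusted p 0.128) did not. Within sets 1 and 2 the values were -0.91 and -0.74 for Cebpb, -0.87 and -0.42 for Cebpg, -1.34 and -0.83 for Chac1, -0.19 and -0.63 for Jdp2, 0.66 and 0.78 for Sesn2, and 0.66 and 0.63 for Ppp1r15a, of which none passed (adjusted p 0.139 to 0.707). Ddit3, the stress factor CHOP, overlapped between control (9.24 to 40.9 CPM) and 405 min (28.6 to 38.4 CPM), with a log2 fold change of 0.05 (SE 0.332, adjusted p 0.910). Trib3 had no count in control replicate 3 and was not tested. It ranged from 0 to 8.57 CPM in control and from 1.55 to 7.33 CPM at 405 min.

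Among the eIF2 kinases and amino acid sensors (13 of 15 tested), 3 rose and 1 fell. Rptor, a subunit of the mTORC1 kinase complex, rose by 1.55 (SE 0.316, edgeR adjusted p 0.00462). Eif2ak1, the heme-regulated eIF2 kinase, rose by 0.79 (SE 0.256, adjusted p 0.0395) and Impact, an inhibitor of the eIF2 kinase GCN2, by 0.74 (SE 0.244, adjusted p 0.0403). Eif2ak1 and Impact passed in 12 and 15 of the 30 alternative settings, Rptor in all 30. Within the sets Rptor had smaller differences that passed, 0.98 in set 1 (edgeR adjusted p 0.048) and 0.91 in set 2 (adjusted p 0.0458). In set 2 it measured 63.0 CPM in the control and 96.9 to 134 CPM at 405 min. Impact had larger ones, 1.24 (adjusted p 0.00589) and 1.16 (adjusted p 0.0154), and those of Eif2ak1, 0.40 and 0.54, did not pass (adjusted p 0.67 and 0.27). Rragc, a GTPase that recruits mTORC1 to lysosomes, fell by 1.13 (SE 0.326, adjusted p 0.0254). Its 405-min samples (172 to 351 CPM) overlapped with the set 2 control (205 CPM), and the value of Rragc was -0.75 within set 1 and -0.07 within set 2.

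**Figure D5:**
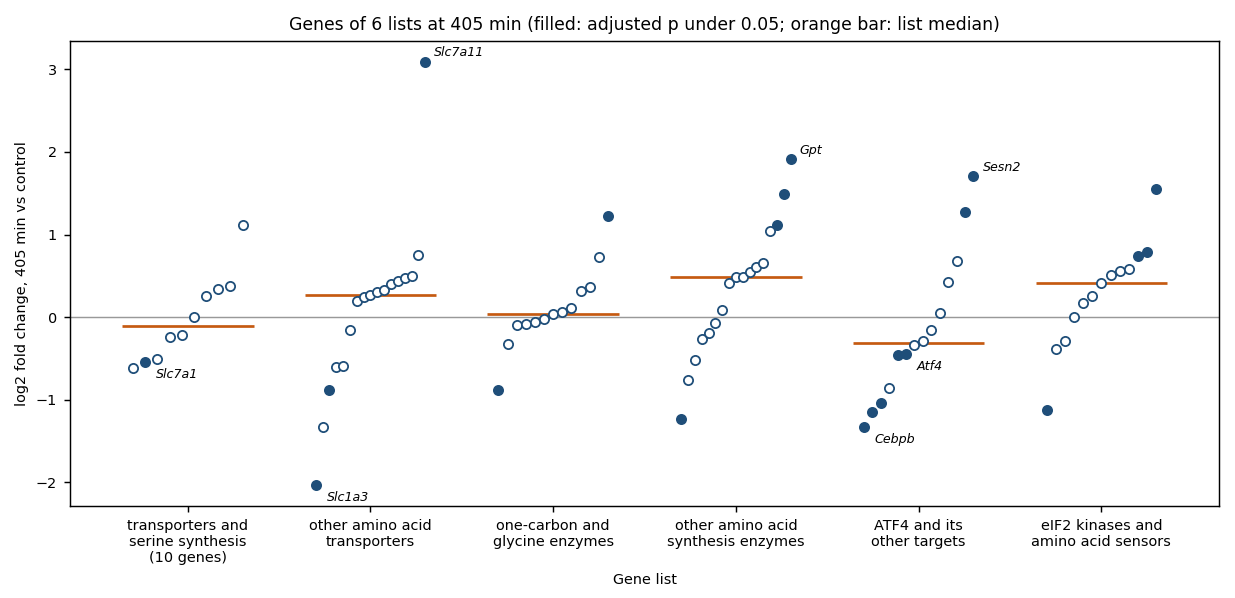
Fitted log2 fold change at 405 min against control for every tested gene of the 10 mRNAs and of 5 further lists, 1 point per gene, filled where the adjusted p was under 0.05, with an orange bar at the median of each list. Among the 10 the filled point is Slc7a1 (-0.54), while the outermost filled points of the other lists are Slc7a11 (3.09) and Slc1a3 (-2.04).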

How the data were processed

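mRNA-seq was done in 15 samples. Per the labels the input was total RNA and libraries came from NuGEN's Encore Complete kit, whereas the study's methods describe oligo(dT) beads with random hexamers and also an Encore kit. Which sample was prepared by which method is not given in the sources used here. The authors aligned reads to mm9 and counted them against RefSeq on DNAnexus (aligner and version not given in the sources used here). The authors deposited 4 values per gene. What the authors deposited as read count is an expected count, which may hold a fraction. It was rounded before testing, since whole counts had been assumed. The deposited RPKM divides by gene length and depth and was used to compare levels between genes. The deposited standard score (the RPKM as a Z score) and the deposited ratio, the RPKM over its root mean square, were not used. Tables were joined by gene identifier.

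Genes at 0 in any sample were dropped, leaving 10276 of 20207, which were scaled by TMM and fitted in edgeR 4.0.16 (R 4.3.3) with a term for group, at a false discovery rate of 0.05. DESeq2 1.42.0 and limma 3.58.1 (voom) were alternatives, with 28 others, of which the removal of both control replicates 2 and 3 and the replicate block with library set were added after the data were seen. Scripts were tested on simulated counts. Library sets were split at the widest gap of the GC slopes, with GC from the longest GENCODE vM1 transcript (98.2% of tested genes). Replicate pairs (22) differed by a chi-square of 12.0 to 274.4 per degree of freedom, so none was counted as a duplicate. No pairing by replicate number was seen. Same-number deviations correlated at -0.11 on average over 19 pairs and different-number ones at 0.03 over 64. Library set falls on mostly unlike numbers in the groups, so the check cannot exclude shared batches. Sequencing depth limits genes near 1 CPM most. Strand use in counting is not given in the sources used here. Named genes were the 10, from each wider list the up to 4 with the smallest adjusted p at 405 min, and Atf4, Asns, Slc7a11, Mthfd2, Ddit3 and Trib3. Jdp2, Sesn2 and Ppp1r15a were named after their values were seen. The genes and lists were chosen with earlier results of these data known. Values of 3 genes that these rules would name are not reported here.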

Additional observations from a re-analysis of the deposited data

Results flagged for a closer look

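The Shmt2 level in control replicate 2, at 199 CPM, lay far from the other 4 controls (29.8 to 45.1 CPM). On the log2 scale its gap to the nearest control made up 0.784 of the range of the group, above the limit of 0.71 for 5 samples. It was the single such sample in 20 sets of control or 405-min values of the 10 mRNAs, and chance alone gives about 1 in 20. Control replicate 2 is the control of library set 2, in which Shmt2 measured 194 CPM at 45 min and 140 to 251 CPM at 405 min. What library set stands for is not given by the labels, and its part in the Shmt2 value was not tested beyond the within-set values given above.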

How the results depend on the processing

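Of 1180 values of the 10 mRNAs under 30 alternatives, 1062 kept their direction and their side of the threshold. Of the others, 39 came to pass, 14 ceased to pass and 65 changed sign. Some changes of sign began from values near 0 and others from larger values. Slc7a1 was lower at 405 min in all 30 alternatives. The causes were not tested, except that within-set fits have few samples and that no 135-min sample is in set 2. The labels share replicate numbers, by which no pairing was seen. Same-number r lay between -0.706 and 0.437 (4 of 19 pairs over 0.1), and different-number r between -0.83 and 0.757 (21 of 64). The replicate block called 0 of the 10 lower at 405 min, 0 of the wider lists higher at 135 min and 3 at 405 min, and all genes fell from 1027 higher and 1382 lower to 333 and 467. With the block and GC offset 1 of the 10 was lower from 135 to 405 min, with the block and library set 2.

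Counts of the 10 lower at 405 min (1 as reported) were 2 with DESeq2, 3 with a GC offset, 3 without both control replicates 2 and 3, and 0 with library totals only, with no filter, with only the compared groups and within either library set. Counts higher at 405 min (0 as reported) were 3 without both control replicates 2 and 3, and higher at 135 min 1 with library set as a term. From 135 to 405 min (0 and 0 as reported), 1 was lower with RLE normalization and limma-voom, 2 with DESeq2 and library set as a term, 4 with a GC offset, 3 lower and 1 higher with only the compared groups, and 3 lower and 1 higher without both control replicates. Without 1 sample at a time the 10 gave 0 to 3 higher and 0 to 3 lower at 405 min (3 and 3 without control replicate 2), 0 to 2 lower from 135 to 405 min (2 without control replicate 3), and 0 in the other comparisons. Calls over all 10276 genes rose in the same settings. At 405 min they were 2482 higher and 2230 lower without both control replicates, and 2517 and 2461 without control replicate 2. From 135 to 405 min they were 1703 and 1263 with only the compared groups, and 1552 and 1152 without both control replicates. As reported they were 1027 and 1382 at 405 min, and 230 and 290 from 135 to 405 min.

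The wider lists (1 higher, 0 lower at 135 min, 10 and 10 at 405 min) gave 0 higher at 135 min with library totals only, filterByExpr, no filter and only the compared groups, 2 with DESeq2, a GC offset, set 1 and without both controls, 4 with the block and library set and 5 with library set as a term. They gave 1 lower at 135 min with DESeq2 and in set 1, and 2 with library set as a term and with the block and library set. At 405 min, 6 were higher with no filter, 4 with only the compared groups, 5 with library set as a term, 5 with the block and library set, 2 in set 1, 4 in set 2 and 20 without both controls. Lower were 6 with only the compared groups, 1 in set 1 and 2 in set 2. Without 1 sample at a time, 0 to 2 were higher and 0 to 1 lower at 135 min, and 4 to 23 higher and 7 to 14 lower at 405 min, the highest without control replicate 2. Over all genes the alternatives gave 11 to 314 higher and 20 to 501 lower at 135 min, and 121 to 2517 higher and 96 to 2461 lower at 405 min. Library totals in place of TMM moved the median of all genes at 405 min from -0.00 to 0.11 on the log2 scale.

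Changes of sign were as follows, on the log2 scale. Slc3a2 from 135 to 405 min was -0.011 with RLE and DESeq2, -0.006 with limma-voom, -0.029 with filterByExpr, -0.013 with no filter, -0.002 with only the compared groups, -0.224 with the block and GC offset, -0.243 with the GC offset, -0.341 with library set, -0.290 in set 1 and -0.311 with the block and library set. Slc7a5 at 405 min was 0.078 with library totals only, 0.025 with limma-voom, 0.011 with the block and 0.251 without both controls. Slc38a2 was -0.017 at 135 min with library totals only, and -0.101 and -0.129 from 135 to 405 min with library set, without and with the block. Phgdh was -0.046 at 45 min, -0.214 at 405 min and -0.407 from 135 to 405 min with the block and GC offset, -0.012, -0.174 and -0.403 with the GC offset, -0.385 from 135 to 405 min with library set, -0.392 in set 1, and -0.399 (and -0.013 at 405 min) with the block and library set. Slc1a5 at 45 min was -0.058 with the block and GC offset. Shmt2 at 135 min was 0.428 with library set, 0.510 in set 1, 0.414 without both controls and 0.436 with the block and library set, and from 135 to 405 min -0.246, -0.253 in set 1 and -0.301 with the block and library set. Psph from 135 to 405 min was 0.009 with library set and 0.058 with the block added. Within set 2 the values at 45 min were -0.188 for Slc7a5, 0.198 for Slc1a4, -0.569 for Slc1a5, -0.123 for Phgdh, 0.287 for Psph and -0.029 for Shmt2, and at 405 min -0.066 for Slc3a2, -0.081 for Slc38a2, 0.002 for Slc1a4, -0.135 for Phgdh and -0.070 for Shmt2. Without 1 sample at a time Slc38a2 at 135 min ran from -0.077 to 0.135, Shmt2 at 135 min from -0.572 to 0.509 and at 45 min from -0.134 to 1.502, Slc7a5 at 405 min from -0.276 to 0.426, Psph at 135 min from -0.432 to 0.034, Slc3a2 from 135 to 405 min from -0.065 to 0.087, Slc7a1 at 45 min from -0.019 to 0.273 and Phgdh from 135 to 405 min from -0.002 to 0.294.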
